A study of Mus musculus with 12 samples.

Results

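STAT5 regions of wild-type mouse embryonic fibroblasts were examined that lie far from any STAT5 region of cells overexpressing STAT5A. A region counted as far when more than 10 kb separated its edge from the nearest region in both of the overexpression lists. The 3871 far regions made up 29.2% of the 13278 wild-type regions (95% exact binomial interval 28.4 to 29.9%), and the 3 lists together held 156642 regions. A subgroup of 408 far regions lay in sparse windows, which are fixed 1 Mb windows holding at most 2 overexpression regions with both lists counted together. Each list holds positions on the mm9 build of the mouse genome, and none gives a height, score or p-value. The regions were chosen by their measured distances to the overexpression regions, so every distance and every density by distance given here is a description without a test.

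The wild-type list comes from 1 library, and each overexpression list was taken to come from 1 library. The overexpression libraries are titled as a first experiment and its repeat and are called replicates 1 and 2 here. Per the labels, the replicate 2 list belongs to both an unstimulated and a stimulated repeat library. It was assigned to the stimulated one from its name alone. Wild-type cells carried intact STAT5. The overexpressing cells lacked Stat5 (Stat5-/-) and carried added STAT5A. The labels do not give the promoter or vector that drove it, nor whether a line was clonal. All cells were of C57BL/6 background, came from fetuses of 12.5 to 13.5 days and were used at passage 9 to 10. After 5 h in serum-free medium the culture of each assigned library received 1 µg/ml growth hormone. STAT5 was precipitated 45 min later with the same antibody. The other 9 of the 12 libraries (IgG controls, unstimulated and Stat5-null cells) were not analysed here, so no background from cells without STAT5 stands beside these values. Region lists hold no expression, so the fibroblast label could not be checked against marker genes. The depth of the libraries is unknown. Replicate 1 held 71561 regions and replicate 2 held 71803, and the labels do not say whether they came from separate cultures.

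STAT5A and STAT5B are closely related transcription factors that lie latent in the cytoplasm. When growth hormone binds its receptor, the kinase JAK2 phosphorylates them on a tyrosine, and they pair, enter the nucleus and bind short palindromic DNA elements at enhancers and promoters. In fibroblasts, as in liver, growth hormone signalling through STAT5 is known for inducing the SOCS family of feedback inhibitors and other growth-related genes. Chromatin immunoprecipitation followed by sequencing (ChIP-seq) marks stretches where fragments pulled down with the antibody pile up, and each such stretch is a region in a list. The gene positions and genome sequence of mm9 were not used here, so the far regions are described by position, width and spacing, and neither genes nor sequences are printed for them.

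The far regions covered a wide range of distances. The distance of a far region to the nearest overexpression region had a median of 33.4 kb, with 10% of them under 12.3 kb and 10% over 263 kb. Of the 3871 far regions, 1206 (31.2%) lay 10 to 20 kb away and 1169 (30.2%) lay 20 to 50 kb away. At the other end, 931 (24.1%) lay more than 100 kb away, 128 (3.31%) more than 500 kb and 15 more than 1000 kb. Neither replicate alone set these distances, since the nearest region belonged to replicate 1 for 1922 far regions and to replicate 2 for 1947. For 1 region they were equally near, and for 1 on chromosome Y, where neither overexpression list has a region, there was no distance. Measured against a single list, the median distance was 48.8 kb to replicate 1 and 47.0 kb to replicate 2.

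**Figure D1:**
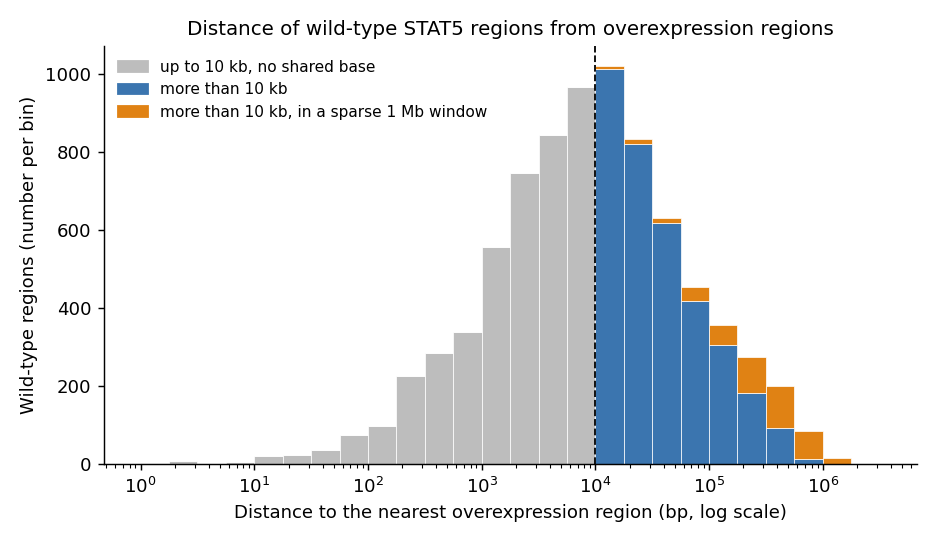
Number of wild-type regions by distance to the nearest overexpression region, in logarithmic bins, for regions sharing no base with an overexpression region. The dashed line is the 10 kb threshold, and the regions in sparse windows, whose median distance was 301 kb, sit mostly at the right.

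The threshold of 10 kb cuts through a continuous range. The regions just inside it lay 10.002 kb (chromosome 10, 116671643 to 116672001), 10.006 kb (chromosome 19, 10280153 to 10280460) and 10.022 kb (chromosome 1, 133372623 to 133373120) from an overexpression region. Just outside it were regions at 9.999 kb (chromosome 13, 90643023 to 90643560), 9.995 kb (chromosome 4, 29076715 to 29077211) and 9.991 kb (chromosome 4, 149060323 to 149060840). Their widths were 359, 308 and 498 bp inside and 538, 497 and 518 bp outside. The next nearest to the threshold were 198 and 588 bp wide inside and 428 and 338 bp wide outside, so the widths overlapped. Apart from the far regions, 4236 wild-type regions lay within 10 kb without sharing a base with an overexpression region, and 5171 shared at least 1 base.

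The same rule was applied between the replicates to see how often distance of this size arises within the overexpressing cells. Of replicate 2 regions, 17788 (24.8%) lay more than 10 kb from any replicate 1 region, and of replicate 1 regions 12147 (17.0%) lay that far from replicate 2. Of wild-type regions, 5307 (40.0%) lay that far from replicate 1 and 4947 (37.3%) from replicate 2. Lying far from a single replicate was thus common in both genotypes, and the share was higher for the wild-type list than between replicates. There were 1436 wild-type regions far from replicate 1 alone, of which 318 overlapped a replicate 2 region. A further 1076 were far from replicate 2 alone, of which 379 overlapped replicate 1. With 1 wild-type library these shares have no replicate check on that side.

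Density changed with distance differently in the wild-type list and in the overexpression lists. The number of region centres was divided by the length of sequence lying at each distance from replicate 1, on the 18 autosomes other than chromosome 10. At 10 to 20 kb replicate 2 had 20.4 regions per Mb and wild type had 3.88. At 50 to 100 kb the densities were 7.79 and 2.73. At 200 to 500 kb they were 1.26 for replicate 2 and 1.97 for wild type, and beyond 500 kb they were 0.656 and 1.72. Replicate 2 density thus fell 31.1-fold between 10 to 20 kb and beyond 500 kb (exact interval from counts 25.6 to 38.2), and wild-type density fell 2.25-fold (1.97 to 2.58). Beyond 500 kb the wild-type list had 268 regions and replicate 2 had 102, although replicate 2 is the longer list, a ratio of 2.63 (2.08 to 3.33).

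Measured from replicate 2 the picture was the same. Replicate 1 density fell 23.2-fold (18.7 to 29.1), from 14.3 per Mb at 10 to 20 kb to 0.616 beyond 500 kb, and wild-type density fell 2.10-fold (1.83 to 2.42), from 3.72 to 1.77. Beyond 500 kb wild type had 244 regions and replicate 1 had 85. The wild-type density passed below that of the other replicate up to 100 to 200 kb and above it from 200 kb on, for both reference replicates. The lists differ in length and format and their depth is unknown, and the part of these in the difference was not tested. Every interval given here reflects counting error alone, because a list was taken as 1 library however many regions it holds.

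**Figure D2:**
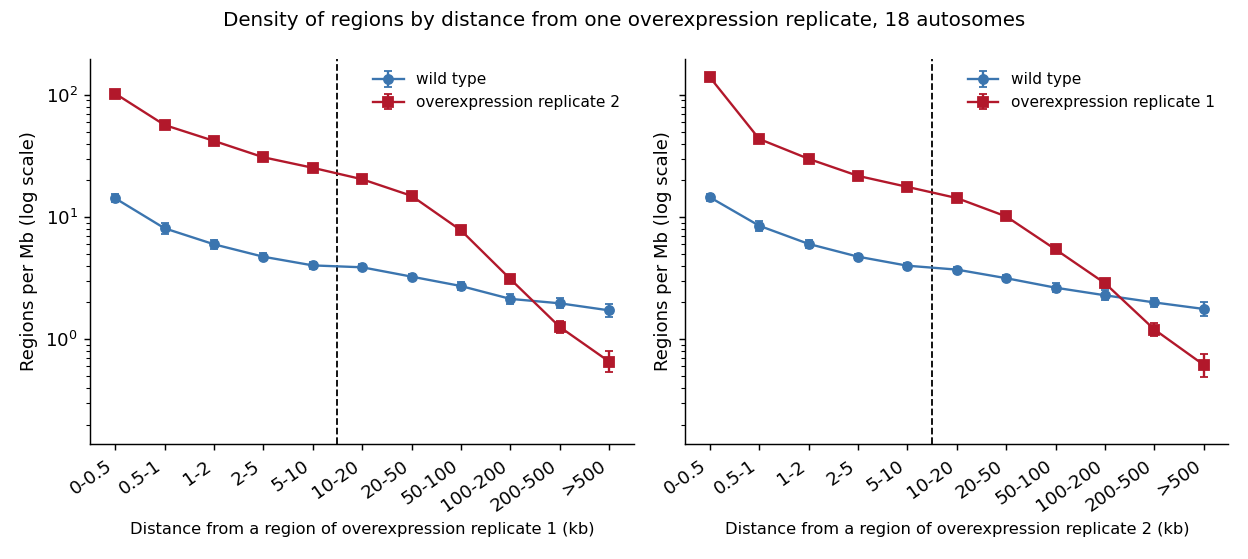
Regions per Mb (log scale) by distance from replicate 1 (left) and from replicate 2 (right), for wild type and for the other overexpression replicate, on 18 autosomes without chromosome 10. Bars are 95% exact Poisson intervals; the replicate curves fall 31.1-fold and 23.2-fold beyond the dashed 10 kb line and cross the wild-type curves, which fall 2.25-fold and 2.10-fold.

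Taking both overexpression lists together, wild-type density was highest where overexpression regions stand, fell steeply close to them and declined slowly farther out. Inside overexpression regions it was 94.1 per Mb on the 18 autosomes. It was 10.8 within 500 bp of them, 3.27 at 5 to 10 kb, 3.10 at 10 to 20 kb, 1.998 at 100 to 200 kb and 1.44 beyond 500 kb. Sequence more than 10 kb from any overexpression region amounted to 1359 Mb, or 59.6% of the span examined on these autosomes, and held 29.2% of their wild-type regions at 2.46 per Mb (exact Poisson interval 2.37 to 2.54). Between 5 to 10 kb and 10 to 20 kb the intervals overlapped (3.07 to 3.47 and 2.91 to 3.29). Bands this wide cannot show whether a step stands at the threshold itself, and this was not tested. The lengths include assembly gaps and unmappable stretches, which lowers these densities. Their share of each distance band was not analysed, and they may weigh more on the far bands. The size of each decline with distance, also from a single replicate, may therefore be affected.

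Chromosome 10 held 485 far regions, more than any other chromosome, out of 1672 wild-type regions. This share of 29.0% (26.8 to 31.2%) was close to the 29.2% of the whole list. The far sequence of chromosome 10 was much more densely occupied than that of the other autosomes. Far from overexpression regions, wild-type density was 8.44 per Mb on chromosome 10 (7.71 to 9.22). Among the other 18 autosomes the lowest value was 1.46, on chromosome 4, and the highest 3.15, on chromosome 16. The ratio to those autosomes pooled was 3.44 (exact interval 3.12 to 3.78). It was 2.26 (2.08 to 2.46) within 10 kb of overexpression regions and 1.47 (1.34 to 1.61) inside them. On chromosome 10 the density showed no decline beyond 2 kb. It was 8.80 at 2 to 5 kb, 7.84 at 10 to 20 kb, 9.24 at 20 to 50 kb, 8.44 at 50 to 100 kb, 6.69 at 100 to 200 kb and 10.7 at 200 to 500 kb, where 31 regions were counted. All 13 segments of 10 Mb along chromosome 10 lay above the median segment of the other autosomes, which was 2.47 per Mb, and 12 of them lay above the highest of the other 238 segments, which was 5.59.

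The overexpression lists showed a smaller excess by the same measure. More than 10 kb from replicate 1, replicate 2 had 14.2 regions per Mb on chromosome 10 and 10.0 on the other autosomes, a ratio of 1.42 (1.33 to 1.51). More than 10 kb from replicate 2, replicate 1 had 12.4 and 7.15, a ratio of 1.73 (1.62 to 1.86). For wild type the corresponding ratios were 3.19 (2.94 to 3.46) far from replicate 1 and 3.28 (3.01 to 3.56) far from replicate 2. A ratio that rose with distance was not particular to wild type. For replicate 2 it was 0.899 inside replicate 1 regions and 1.05 within 10 kb of them. For replicate 1 it was 1.00 inside replicate 2 regions and 1.33 within 10 kb of them. Chromosome 10 was singled out because its density was already known to be the highest. Chromosome 10 made up 12.5% of far regions and 12.6% of other wild-type regions. Far sequence covered 45.8% of the span of chromosome 10 and 59.6% of the span of the other autosomes.

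Chromosome X stood at the other end. It held 60 far regions out of 150 wild-type regions, a share of 40.0% (32.1 to 48.3%), against 21.0 to 32.9% on the autosomes. Far sequence also covered more of its span, 81.3% against 59.6% on the 18 autosomes other than chromosome 10. The far density of chromosome X was 0.459 per Mb, or 0.187 times that of the 18 autosomes (0.142 to 0.241). Inside overexpression regions the ratio was 0.484 (0.355 to 0.645). Measured more than 10 kb from the other replicate alone, chromosome X density was 0.420 times that of the 18 autosomes for replicate 2 and 0.505 times for replicate 1. For wild type the ratio by that measure was 0.189 far from replicate 1 and 0.202 far from replicate 2. Of its 17 segments of 10 Mb, all 17 lay below the autosomal median.

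**Figure D3:**
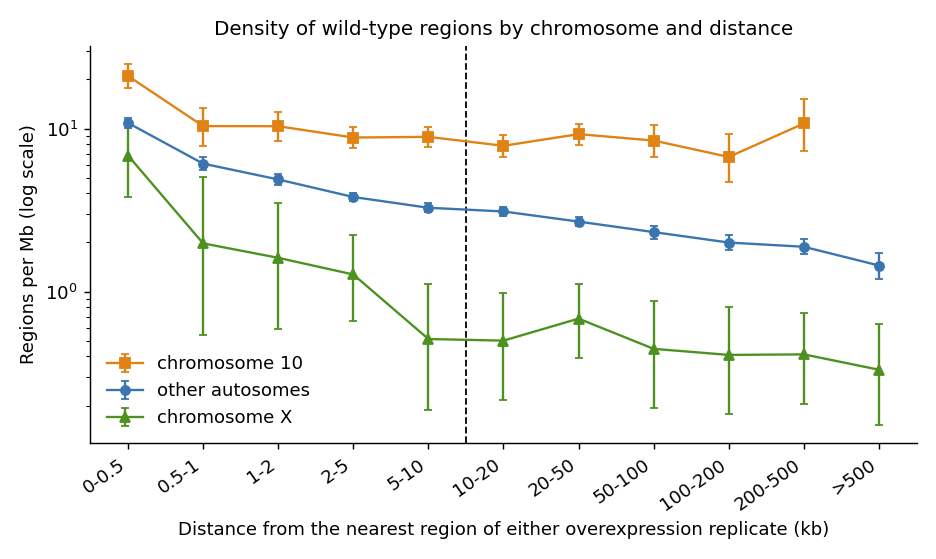
Wild-type regions per Mb (log scale) by distance from the nearest region of either overexpression replicate, for chromosome 10, the other 18 autosomes pooled and chromosome X, with 95% exact Poisson intervals. To the right of the dashed 10 kb line chromosome 10 stays between 6.69 and 10.7 per Mb, the other autosomes fall from 3.10 to 1.44, and chromosome X stays between 0.332 and 0.682; chromosome 10 has no sequence beyond 500 kb.

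Fixed windows gave the same view on a larger scale. Of 2584 windows of 1 Mb on the autosomes and chromosome X, 272 were sparse, and 163 of these held at least 1 far region. The sparse windows held 420 wild-type regions, of which 407 were far regions, and the region on chromosome Y makes the total 408. With so few overexpression regions in a window, the definition of a far region itself favours so high a share. Windows with no overexpression region numbered 111 and held 128 far regions, those with 1 numbered 88 and held 149, and those with 2 numbered 73 and held 130. In 37 of the 73 windows with 2 overexpression regions, each replicate gave 1. With replicate 1 left out of both the distance rule and the windows, 776 of 4947 regions qualified, and with replicate 2 left out of both, 658 of 5307 did. A single list can only enlarge either set, so these regions need not be far from both lists.

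On the 18 autosomes the mean number of wild-type regions per window rose with overexpression density, from 1.80 in sparse windows to 2.74 with 3 to 10 overexpression regions, 4.13 with 26 to 50 and 8.67 with more than 100. Far regions alone ran the other way over most of that range, with means of 2.21 in windows with 3 to 10 overexpression regions and 0.888 with more than 100, a direction the definition of a far region favours. Chromosome 10 had a mean of 11.4 wild-type regions in windows with 3 to 10 overexpression regions, 11.3 with 11 to 25, 11.4 with 26 to 50 and 11.8 with 51 to 100, and 15.7 with more than 100. Only 1 window of chromosome 10 was sparse, and it held 7 far regions. Of the 51 sparse windows of chromosome X, 36 held no wild-type region.

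**Figure D4:**
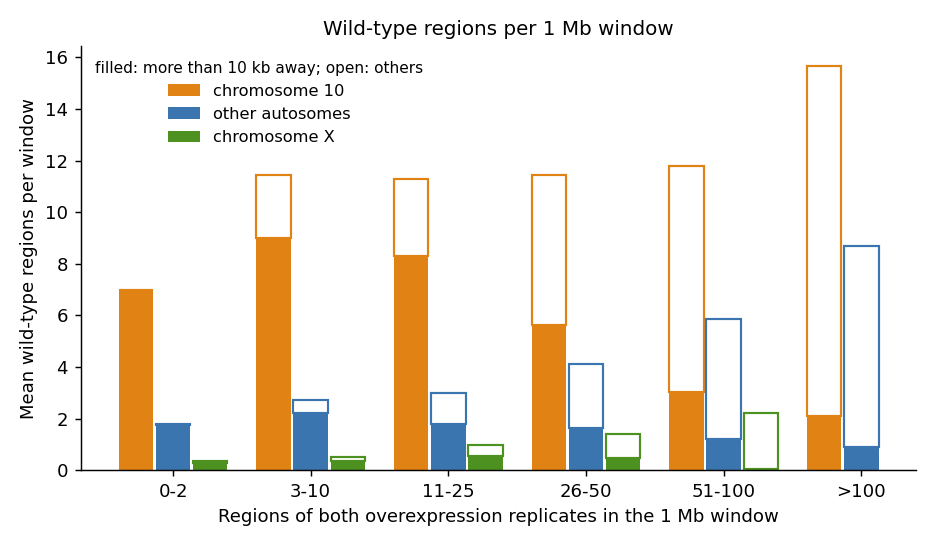
Mean number of wild-type regions per 1 Mb window, by the number of overexpression regions of both replicates in the window, for chromosome 10, the other autosomes and chromosome X. Filled bars are regions more than 10 kb from an overexpression region and open bars the rest; chromosome 10 has 1 window in the first group and stays between 11.3 and 11.8 in the next 4, while the other autosomes rise from 1.80 to 8.67.

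Individual windows held many far regions in a row. The window with the most was on chromosome 10, from 113000001 to 114000000, where all 17 wild-type regions were far, against 3 overexpression regions in replicate 1 and none in replicate 2. These 17 regions, 188 to 618 bp wide, ran over 760 kb, from 113081583 to 113841131. Where a window holds few or no overexpression regions, the definition favours that all its wild-type regions are far. Of the 10 windows with the most far regions 8 were on chromosome 10. The others were on chromosome 8, from 65000001 to 66000000, with 13 far regions beside 4 and 3 overexpression regions, and on chromosome 16, from 71000001 to 72000000. The latter was the fullest of the sparse windows. It held 11 wild-type regions, all far and 179 to 498 bp wide, and no overexpression region in either replicate. Next among sparse windows were chromosome 16 from 68000001 to 69000000 and chromosome 6 from 45000001 to 46000000, with 8 far regions each and 0 and 1 overexpression regions.

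Long stretches without an overexpression region in either list showed how unevenly the far regions are spread. There were 542 such stretches longer than 0.5 Mb, 535 Mb in all, and they held 926 far regions. These were among 957 wild-type regions there, a share that the definition of a far region favours. Those longer than 1 Mb numbered 170 and held 381 far regions, and 53 of the 170 held no wild-type region at all. Whether the empty stretches can be mapped was not analysed. The stretch with the most was on chromosome 16, from 67627641 to 69674882, with 15 wild-type regions in 2.05 Mb, all of them far. Another on the same chromosome, from 70878031 to 72178732, held 13 in 1.301 Mb, and the stretch on chromosome 6 from 45267000 to 47177732 held 13 in 1.91 Mb. Their densities of 7.33, 9.99 and 6.80 per Mb stand beside 1.40 per Mb over all 170 stretches longer than 1 Mb. They were picked for holding the most far regions, so their excess is a description. On chromosome 10 the stretch from 113436201 to 114293932 held 11 in 0.858 Mb.

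Read in order along the chromosomes, the far regions formed 1845 runs uninterrupted by a nearer wild-type region. Runs of a single region numbered 1090, and 164 runs of 5 or more held 1305 far regions. The longest run, on chromosome 1 from 141419203 to 151548681, had 23 far regions in 10.1 Mb, among which 71 overexpression regions were interspersed. A run of 21 on chromosome 10, from 112923993 to 114307640, took only 1.38 Mb and had 5 overexpression regions within it. The run of 15 on chromosome 16, from 67658153 to 69514560, had none.

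The 10 most remote far regions were on chromosomes 1, 4, 5 and 16. Each lay more than 1000 kb from any overexpression region, so its 1 Mb window could hold none. The farthest, on chromosome 1 from 49022733 to 49023060, was 328 bp wide and lay 1527 kb from replicate 2 and 1862 kb from replicate 1. It was followed by a region on chromosome 5 from 61583593 to 61583781, 189 bp wide and 1347 kb from the nearest overexpression region. The third, on chromosome 1 from 29408773 to 29409140, was 368 bp wide and 1243 kb away. It shared a stretch of 2.83 Mb, free of overexpression regions and holding 9 far regions, with others of the 10 most remote, at 28991823 to 28992280 and 29556343 to 29556840.

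Far regions had neighbours of their own less often than other wild-type regions. Another wild-type region lay within 10 kb of 369 far regions (9.53%, interval 8.63 to 10.5%), against 24.1% of the regions near overexpression regions and 33.5% of those overlapping them. The nearest wild-type neighbour, at any distance, was itself far for 2109 of the 3871 (54.5%), and the median gap to it was 72.3 kb, against 30.3 kb for other wild-type regions. The rule limits which neighbours a far region can have at short range, so these values are described only. In sparse windows 37 of 408 far regions (9.07%, interval 6.47 to 12.3%) had a neighbour within 10 kb, and outside them 9.59% (8.63 to 10.6%).

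A few far regions stood almost edge to edge. In 16 pairs, neighbouring far regions had a gap of 11 bp, and no pair was closer. Their summits, the positions the list gives as highest, lay 100 to 360 bp apart. The most remote pair was on chromosome 6, at 132353983 to 132354261 and 132354273 to 132354500, 701 kb from any overexpression region, with summits 250 bp apart. Of all far regions, 0.852% had a wild-type neighbour within 20 bp, against 1.49% of regions near overexpression regions and 7.45% of those overlapping them. The intervals of the far and near shares overlapped, so the low share was not particular to far regions.

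Width was not used to choose the regions, and its median was similar in each set. The median was 388 bp for far regions, 378 bp for those near and 388 bp for those overlapping overexpression regions, and the middle 50% ran from 294 to 497 bp, 288 to 488 bp and 298 to 489 bp. In sparse windows the median was 388 bp as well. Nor did width change much with distance, with medians of 379 bp at 10 to 20 kb, 378 bp at 100 to 200 kb and 413 bp beyond 500 kb. The sets differed at the wide end. Regions over 560 bp, a limit chosen after the widths were seen, made up 2.79% of far regions (2.29 to 3.36%), 3.38% of near regions (2.85 to 3.96%) and 9.44% of overlapping regions (8.65 to 10.3%). With 1 wild-type library there is no test of these differences.

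The wild-type list mixes intervals of different form, and far regions held more of the rarer form. Most intervals have edges on a 10 bp grid, with 1 bp of tolerance at the end, as do those of replicate 1, whereas the edges in replicate 2 follow no such grid. Among far regions 687 (17.7%, interval 16.6 to 19.0%) were off this grid, against 15.6% (14.5 to 16.7%) of near and 7.08% (6.39 to 7.81%) of overlapping regions. In sparse windows the share was 17.2% (13.6 to 21.2%). Off-grid far regions had a median width of 511 bp and their summits lay a median of 92.5 bp from the centre, and on-grid far regions had medians of 348 bp and 32.0 bp. On the grid alone, far regions were narrower than overlapping ones (348 and 368 bp) and as wide as near ones (348 bp). Far from overexpression regions, the chromosome 10 excess appeared in both forms, with ratios of 3.72 (3.35 to 4.12) on the grid and 2.18 (1.64 to 2.86) off it. Inside overexpression regions the ratio was 1.51 (1.37 to 1.66) on the grid. Off the grid it was 0.869 (0.506 to 1.40), from 18 regions on chromosome 10. The part of this difference in form in the distances between lists was not tested.

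**Figure D5:**
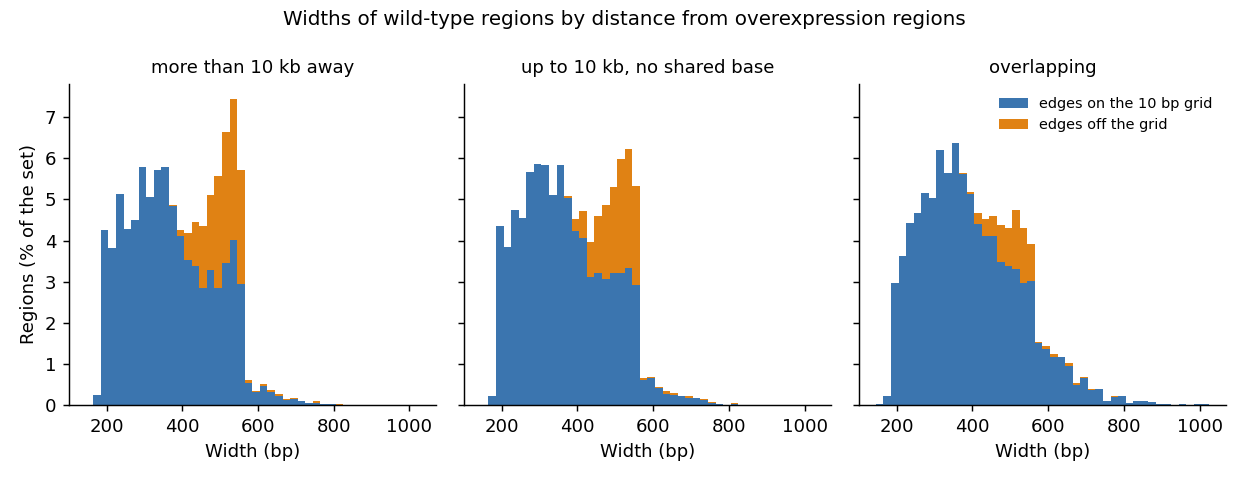
Widths of wild-type regions in 20 bp bins, as a percent of each set, for regions far from, near to and overlapping overexpression regions, split by whether the edges lie on the 10 bp grid. Off-grid regions, 17.7, 15.6 and 7.08% of the sets, lie around 511 bp, and the tail over 560 bp is larger among overlapping regions (9.44% against 2.79% of far regions).

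The widest far regions stood at varied distances. The widest of all, on chromosome 10 from 51754660 to 51755467, was 808 bp wide and lay 50.99 kb from the nearest overexpression region. The next, on chromosome 17 from 62504153 to 62504940, was 788 bp wide and 37.1 kb away. The third, on chromosome 3 from 33293303 to 33294070, was 768 bp wide and 320 kb away, with no other wild-type region within 275 kb. Of the 10 widest far regions, 4 were on chromosome 10 and none was in a sparse window. Among all far regions, 12.5% were on chromosome 10 and 10.5% in sparse windows. In sparse windows the widest was on chromosome 13 from 86595953 to 86596630, at 678 bp, with 1 overexpression region in its window and the nearest 421 kb away. It was followed by 628 bp regions on chromosome 14, from 85734583 to 85735210 and 581 kb from the nearest overexpression region, and on chromosome 8, from 53423903 to 53424530 and 22.2 kb from it.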

How the data were processed

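STAT5 ChIP-seq region lists were used for stimulated wild-type cells (1 library) and stimulated STAT5A-overexpressing Stat5-/- cells (replicates 1 and 2). The authors deposited region starts, ends and, except in replicate 2, summits on mm9, per the file headers, without a score. Names in replicate 2 begin with MACS. Aligner, controls, thresholds and the caller of the other lists: not given in the sources used here. Per the labels, the replicate 2 list belongs to an unstimulated and a stimulated library, and its name places it with the stimulated one.

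Positions were read as BED intervals and printed counted from 1. Gaps were counted edge to edge, and windows by region centre. Densities used centres and sequence between the first and last overexpression region of each chromosome. Intervals are 95% exact (Clopper-Pearson or Poisson, conditional binomial for ratios) and cover counting error only. All 900 gaps planted in simulated data were recovered, and all 13278 wild-type gaps equalled those of bedtools 2.31.1 (Python 3.11.15, numpy 2.4.6, pandas 2.3.3, scipy 1.17.1, matplotlib 3.10.9). Named regions are the widest, the farthest, those next to the threshold, the fullest windows and the closest pairs. The members, lists and comparisons were chosen with earlier results of these data known, and densities by distance, stretches, runs and the 560 bp limit were added after the lists were seen. Planned shares with the STAT motif, at promoters and in genes, base composition and gene lists need mm9 sequence or annotation and were not computed.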

Additional observations from a re-analysis of the deposited data

How the results depend on the processing

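Of 52 alternative values for 8 results, 29 stayed within the interval of the value given (within 1.5 times for numbers of regions) and 23 moved. The 3871 far regions became 1496 at more than 50 kb, by construction, and 2665 to 5447 under the other alternatives. With 1 overexpression replicate left out they numbered 4947 to 5307. The 408 in sparse windows became 129 with no overexpression region allowed, 713 with at most 5, 895 in 500 kb windows and 133 in 2 Mb windows, and 658 to 776 with 1 replicate left out of both the distance rule and the windows. The width difference from other wild-type regions, 10 bp, was -10 bp on the grid alone and 8 to 10 bp with 1 replicate left out. The share with a wild-type neighbour within 10 kb, 9.53%, was 12.0% for regions more than 5 kb away, 8.26% on the grid alone and 11.4 to 12.1% with 1 replicate left out, and 3.56% or 39.3% for neighbours within 2 or 50 kb. Density far from overexpression regions, 2.46 per Mb, was 1.9997 on the grid alone, 2.24, 1.996 and 1.85 beyond 20, 50 and 100 kb, and 2.79 to 2.82 with 1 replicate left out. The chromosome 10 ratio of 3.44 was 3.92, 4.15 and 4.39 beyond 20, 50 and 100 kb. Density and ratio alternatives and joined regions were chosen after seeing the data. Where values moved, the cause was not tested, apart from numbers that a longer distance or a left-out list can move only one way. Nothing that needs mm9 sequence or genes could be computed. No paired analysis was possible because wild type has 1 library and the numbers of the overexpression replicates pair with no analysed list. With depth unknown, how far each number of regions reflects sequencing cannot be told.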

Other observations

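Some of the longest stretches without an overexpression region were empty in wild type too. The longest, on chromosome X from 23438364 to 33385022, spanned 9.95 Mb and held no wild-type region. The next, on chromosome 7 from 39055283 to 46704826, spanned 7.65 Mb and held 1. Of the 31 stretches longer than 2 Mb, 14 held no wild-type region and 6 held 5 or more. Stretches of 2.83 to 3.23 Mb on chromosome 1 held 9 (27820747 to 30651875), 5 (47495234 to 50718035) and 2 (116986771 to 120221757). How much of each stretch can be mapped was not analysed here.

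The only wild-type region on chromosome Y, from 597526 to 597990, was 465 bp wide and off the grid.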
